A study of Mus musculus with 4 samples.

Results

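WPRE_pA is the feature in these data that stands for the vector itself: by its name it covers the end of the transcript made from the injected virus. It was 1 of 32286 features counted in 4 single-nucleus RNA libraries of mouse primary motor cortex, and it was taken by that name in all 4. All mice were C57BL/6N, and there was 1 library per group. In the SIK3 Ex13del library, AAV8 carrying FLAG-tagged SIK3 without exon 13 was given locally. In the SIK3 WT library, the same kind of virus carried FLAG-tagged wild-type SIK3. Both used hSyn, the human synapsin promoter, which is active in neurons. The sleep deprivation library came from mice kept awake by gentle handling and the ad lib sleep library from mice left to sleep, and the labels of neither name a virus. With 1 library per group, virus, animal, injection and library cannot be told apart, and no test between groups can be made. The intervals given are exact 95% intervals (Poisson for sums, conditional binomial for ratios, Clopper-Pearson for shares). They cover counting error only, and nuclei varied more than counting error, so they understate the spread.

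The woodchuck hepatitis virus posttranscriptional regulatory element (WPRE) is a stretch of RNA that vector designers place behind a transgene to raise its expression, followed by a polyadenylation signal (pA). A 3′ library primes from the poly(A) tail, so UMIs (unique molecular identifiers, 1 per captured RNA molecule) of a vector transcript fall in that end piece. AAV8, a serotype of adeno-associated virus, enters neurons and glia alike, and with hSyn it is the promoter that is meant to limit expression to neurons. SIK3 is a salt-inducible kinase, and mice whose SIK3 lacks exon 13 sleep more. RNA from broken cells floats in a nuclei suspension and enters every droplet, so a few UMIs of any abundant RNA appear in nuclei that do not make it.

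The labelled treatments and the feature went together. WPRE_pA had 5090 UMIs among the 43655557 UMIs of the Ex13del library and 3441 among the 47662932 of the WT library. It had 0 UMIs among the 49422196 of the sleep deprivation library and 0 among the 54070503 of the ad lib sleep library. After filters, 5524 Ex13del, 6337 WT, 5333 sleep deprivation and 8251 ad lib sleep nuclei were kept. In these the feature reached 121 CPM (counts scaled to a total of 1000000 UMIs; interval 118 to 125) in the Ex13del library and 65.5 CPM (63.1 to 68.0) in the WT library. A count of 0 was given a limit of 3 counts per library, not the exact interval used elsewhere. That is 0.0668 CPM in the sleep deprivation library and 0.0637 CPM in the ad lib sleep library. The Ex13del level of 121 CPM, without its interval, was 1815-fold the limit of the sleep deprivation library and 1903-fold that of the ad lib sleep library. The WT level of 65.5 CPM was likewise 980.2-fold the limit of the sleep deprivation library and 1028-fold that of the ad lib sleep library. Library pairs shared 9 to 16 cell barcodes, at most 0.269% of the smaller library, and no nucleus with 10 or more vector UMIs was among them. The deposited counts carry no cell type annotation, so the class names below are rebuilt from marker genes and stand for clusters that resemble the type. Clusters like excitatory, inhibitory, glial and vascular cells of cortex were all present. The label of primary motor cortex held in part only: 411 Ex13del and 212 WT nuclei resembled projection neurons of the striatum, a region under the cortex.

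In both AAV libraries most nuclei of every class carried no vector UMI, and the shares that carried one lay close together across classes. In the Ex13del library, 558 of 2218 excitatory nuclei had at least 1 UMI, a share of 25.2% (23.4 to 27.0%) at a median depth of 9758 UMIs per nucleus. Astrocytes, which should not use a neuronal promoter, had a share of 17.9% (14.2 to 22.2%, 68 of 379 nuclei) at a median depth of 2911 UMIs. Barcodes with under 500 detected genes, which were not counted as nuclei, had a share of 19.1% (14.3 to 24.6%, 46 of 241) at a median depth of 544 UMIs. In the WT library the shares were 20.7% (19.2 to 22.3%, 583 of 2812) in excitatory nuclei at a median depth of 9025 UMIs and 17.7% (14.3 to 21.6%, 78 of 440) in astrocytes at 2791 UMIs. The WT barcodes under 500 genes had a share of 20.2% (12.4 to 30.1%, 18 of 89) at 561 UMIs. Over the 7 named glial and vascular classes the share ran from 13.5% to 23.0% in the Ex13del library and from 12.5% to 20.9% in the WT library. Shares at or below those of the barcodes under 500 genes were not read as expression, and whether glia or vessels made any vector transcript was not tested.

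Levels per nucleus told the classes apart better than shares did. Excitatory neurons averaged 1.40 UMIs per nucleus (1.35 to 1.45) in the Ex13del library and 0.468 (0.443 to 0.494) in the WT library. Inhibitory neurons averaged 0.548 (0.489 to 0.613) in the Ex13del library and 0.848 (0.785 to 0.915) in the WT library. Both neuron classes lay above astrocytes, with 0.230 (0.184 to 0.283) in the Ex13del library and 0.218 (0.177 to 0.266) in the WT library. The excitatory over astrocyte ratio was 6.1 (4.93 to 7.64) in the Ex13del library and 2.14 (1.74 to 2.67) in the WT library. Striatal projection neurons, which would also use a synapsin promoter, had no more than astrocytes, with 0.217 (0.174 to 0.266) in the Ex13del library and 0.160 (0.111 to 0.224) in the WT library. Their intervals overlapped those of astrocytes and of the barcodes under 500 genes, which held 0.203 (0.150 to 0.269) and 0.236 (0.146 to 0.361) UMIs per barcode in the Ex13del and WT libraries.

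The order of the named classes from high to low differed between the libraries, and nuclei left unnamed had 0.972 (0.9 to 1.05) in the Ex13del library and 0.451 (0.405 to 0.5) in the WT library. In the Ex13del library it ran from excitatory neurons through microglia at 0.708, inhibitory neurons, oligodendrocytes at 0.472, oligodendrocyte precursors at 0.336 and endothelial cells at 0.269 to astrocytes and striatal projection neurons. Vascular leptomeningeal cells at 0.178 and pericytes with smooth muscle at 0.146 came last there. In the WT library it ran from inhibitory through excitatory neurons, oligodendrocytes at 0.374, precursors at 0.240, astrocytes, microglia at 0.210, endothelial cells at 0.185, pericytes with smooth muscle at 0.174 and striatal projection neurons to vascular leptomeningeal cells at 0.125. From precursors down in the WT order, and from precursors down in the Ex13del order, each class overlapped its neighbour within its interval.

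**Figure D1:**
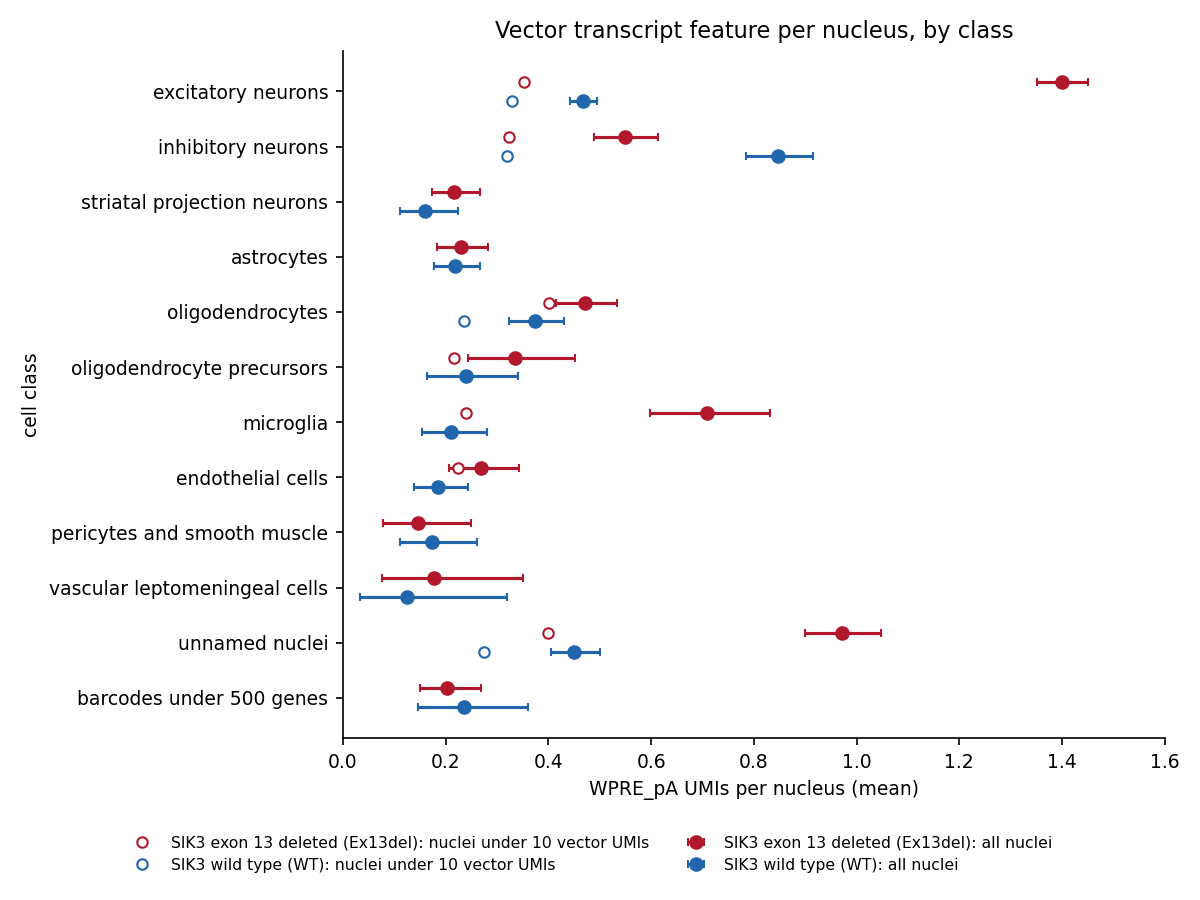
Mean WPRE_pA UMIs per nucleus (x axis) in each cell class (y axis), with the Ex13del library above the WT library. Filled points with exact 95% counting intervals hold all nuclei, and open points hold nuclei with under 10 vector UMIs; without the rich nuclei the excitatory points move to 0.352 (Ex13del) and 0.328 (WT).

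On the CPM scale the order was another one, since CPM divides by the UMIs of the nuclei and glial nuclei held fewer. Excitatory neurons held 127 CPM in the Ex13del library and 45.5 CPM in the WT library, against 70.7 and 72.7 CPM in astrocytes of the Ex13del and WT libraries. The barcodes under 500 genes, with the fewest UMIs, had 361 CPM (267 to 477) in the Ex13del library and 420 CPM (260 to 641) in the WT library. After each nucleus was thinned to 1000 UMIs, excitatory neurons held 0.144 vector UMIs per nucleus in the Ex13del library (1.41 in the same nuclei before thinning, 11 left out as shallower) and 0.0449 in the WT library (0.468 before, 6 left out). Thinned astrocytes held 0.0708 in the Ex13del library (0.238 before, 26 left out) and 0.0821 in the WT library (0.227 before, 26 left out). The thinned excitatory interval (0.129 to 0.161) lay above that of astrocytes (0.0458 to 0.105) in the Ex13del library. In the WT library it (0.0374 to 0.0535) lay below that of astrocytes (0.0569 to 0.115). The order of excitatory neurons and astrocytes in the WT library thus turned with the scale: excitatory neurons were higher per nucleus and lower per UMI. Levels below are per nucleus unless another scale is named.

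Vector UMIs differed less than depth did between shallow and deep nuclei of the 3 classes below, among nuclei with under 10 vector UMIs, a limit that leaves out the nuclei in which the classes differ most. All nuclei of each class and library were split by depth into 3 groups of near-equal number. Nuclei with 10 or more vector UMIs were then left out of each group. In Ex13del excitatory neurons the shallow, middle and deep groups had 0.278, 0.339 and 0.440 vector UMIs per nucleus at median depths of 4983, 9763 and 16915 UMIs. In WT excitatory neurons they had 0.280, 0.326 and 0.380 at 5002, 9022 and 15240 UMIs. Striatal projection neurons had 0.204, 0.234 and 0.212 in the Ex13del library at 4452, 7865 and 12674 UMIs, and 0.127, 0.171 and 0.183 in the WT library at 3930, 6464 and 10710 UMIs. Astrocytes had 0.151, 0.230 and 0.307 in the Ex13del library at 1461, 2910.5 and 5119 UMIs, and 0.163, 0.192 and 0.299 in the WT library at 1405, 2791 and 4387 UMIs. Among these nuclei, astrocytes and excitatory neurons of like depth had overlapping intervals. Shallow excitatory nuclei had 0.278 (0.241 to 0.319) in the Ex13del library, against 0.307 (0.218 to 0.420) in deep astrocytes. Shallow WT excitatory nuclei had 0.280 (0.247 to 0.316), against 0.299 (0.217 to 0.402) in deep astrocytes. With the rich nuclei included, shallow excitatory nuclei had 0.756 (0.695 to 0.822) in the Ex13del library, above the same astrocytes, and 0.334 (0.298 to 0.373) in the WT library, within their interval. The deep excitatory nuclei then had 1.79 (1.69 to 1.89) in the Ex13del library and 0.646 (0.596 to 0.7) in the WT library.

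**Figure D2:**
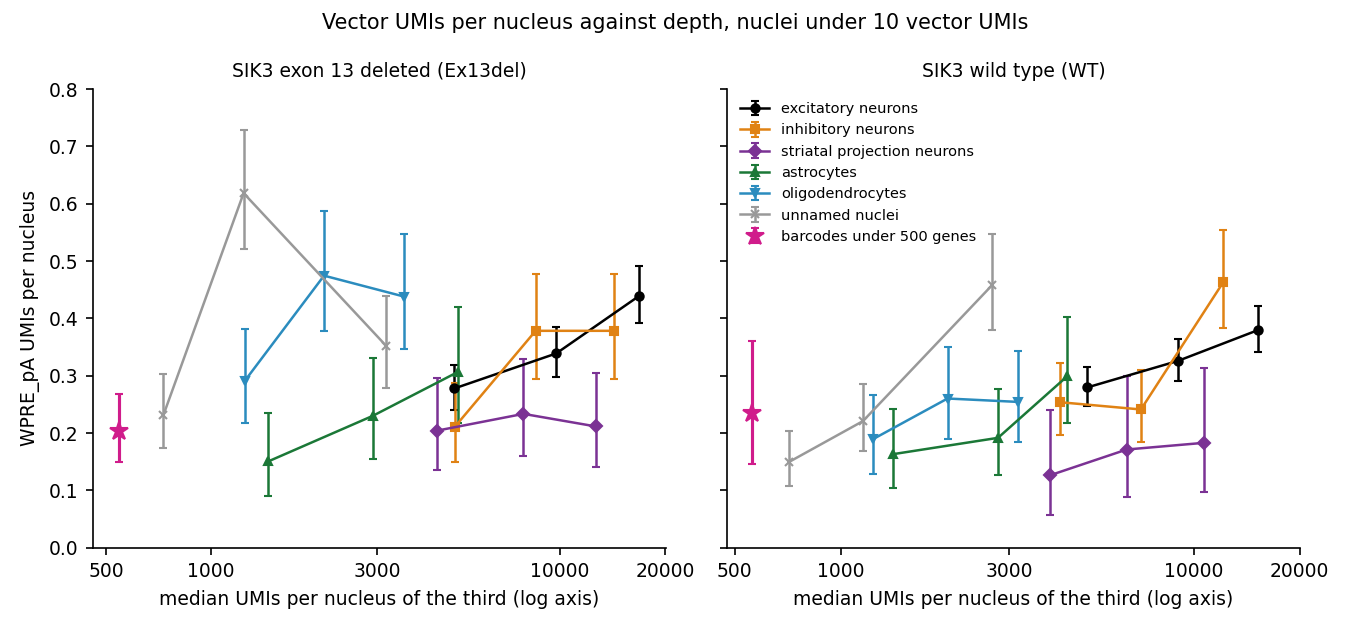
WPRE_pA UMIs per nucleus (y axis) against the median UMIs per nucleus of each depth group (x axis, log scale), for nuclei with under 10 vector UMIs; bars are exact 95% Poisson intervals and the star marks barcodes under 500 genes. Shallow excitatory nuclei (0.278 Ex13del, 0.280 WT) lie level with deep astrocytes (0.307 Ex13del, 0.299 WT).

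Mouse transcripts of neurons give a scale for the vector level in astrocytes. Syt1, a synaptic vesicle protein made by neurons, averaged 37.6 UMIs per excitatory nucleus and 1.06 per astrocyte in the Ex13del library, and 35.7 and 1.44 in the WT library. Astrocytes thus held 2.82% (Ex13del) and 4.04% (WT) of the excitatory Syt1 level. Meg3, a long noncoding RNA held in neuronal nuclei, stood in astrocytes at 1.13% (Ex13del) and 1.17% (WT) of its excitatory level. Slc17a7, the vesicular glutamate transporter of excitatory neurons, stood at 12.6% (Ex13del) and 14.7% (WT). Camk2a, a kinase of excitatory synapses, stood at 17.7% (Ex13del) and 22% (WT). Snap25, a synaptic fusion protein, and Syn1, a synaptic vesicle protein, stood at 8.80% and 7.03% in the Ex13del library and at 8.90% and 9.90% in the WT library. WPRE_pA stood at 16.4% (Ex13del) and 46.7% (WT), above all 6 genes in the WT library and above all but Camk2a in the Ex13del library.

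Outside excitatory and inhibitory neurons, vector UMIs were also set against those of Slc17a7, a gene that glia and vessels are not known to use. In the Ex13del library the ratio ran from 0.394 in pericytes with smooth muscle to 1.68 in microglia, and was 0.557 in excitatory neurons themselves. In the WT library it ran from 0.444 in vascular leptomeningeal cells to 0.837 in oligodendrocytes. Excitatory neurons of the WT library lay below that range, at 0.190 (0.179 to 0.202). There were 0.725 vector UMIs per Slc17a7 UMI in Ex13del astrocytes (0.544 to 0.963) and 0.604 in WT astrocytes (0.464 to 0.783). Striatal projection neurons had 0.832 (0.621 to 1.11) in the Ex13del library and 0.453 (0.293 to 0.688) in the WT library. The barcodes under 500 genes had 0.831 (0.557 to 1.23) in the Ex13del library and 0.724 (0.393 to 1.31) in the WT library. The intervals of these 3 sets overlapped within each library. Oligodendrocytes had 1.25 (1.03 to 1.51) in the Ex13del library and 0.837 (0.687 to 1.02) in the WT library, and Ex13del microglia had 1.68 (1.28 to 2.22). Both classes held rich nuclei, described below, as did the unnamed nuclei with 1.21 (1.08 to 1.35) in the Ex13del library and 0.643 (0.562 to 0.736) in the WT library. Against Camk2a the sets parted: Ex13del astrocytes had 0.165 vector UMIs per Camk2a UMI (0.130 to 0.207), and Ex13del barcodes under 500 genes had 0.380 (0.268 to 0.532). The WT values were 0.129 (0.103 to 0.159) in astrocytes and 0.429 (0.244 to 0.728) in those barcodes. Against Snap25, Syt1, Meg3 and Syn1 the intervals of astrocytes and of those barcodes overlapped in both libraries. How much of the vector count in each class is free RNA was not tested.

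Beside the many nuclei with few vector UMIs stood a small number with many. In Ex13del excitatory neurons 1660 of 2218 nuclei had 0 UMIs, 383 had 1, 74 had 2, 48 had 3 to 9 and 53 had 10 or more. The 53 held 2344 of the 3106 excitatory vector UMIs, or 75.5%. In WT excitatory neurons 2229 of 2812 nuclei had 0, 406 had 1, 85 had 2, 70 had 3 to 9 and 22 had 10 or more, and these 22 held 399 of 1315 UMIs, or 30.3%. In inhibitory neurons 5 of 560 Ex13del nuclei held 128 of 307 UMIs, and 8 of 782 WT nuclei held 416 of 663. A few nuclei thus held most of the vector UMIs of Ex13del excitatory and WT inhibitory neurons, and less than that in the other 2 sets. No astrocyte and no striatal projection neuron of either library reached 10, and none of the barcodes under 500 genes held more than 2. This holds with predicted doublets removed. With them kept and the nuclei clustered again, 1 astrocyte and 1 striatal projection neuron reached 10, both in the WT library.

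**Figure D3:**
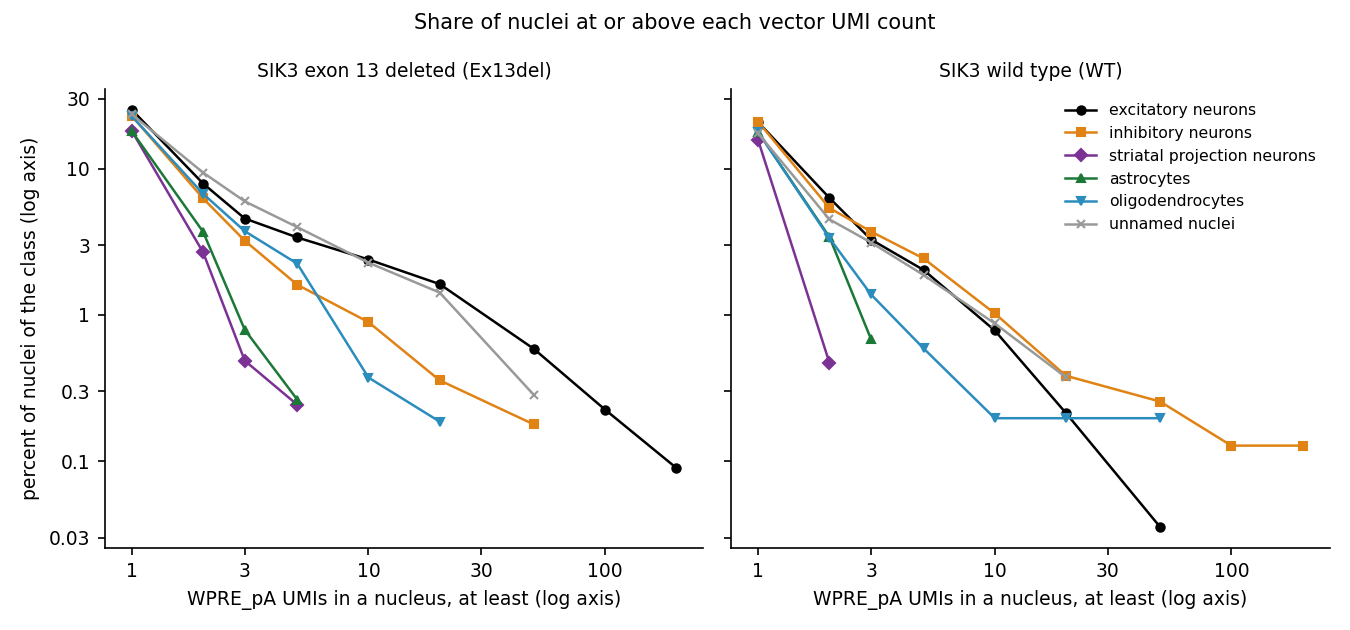
Percent of nuclei of a class (y axis, log scale) that hold at least a given number of WPRE_pA UMIs (x axis, log scale), with the Ex13del library in the left panel and the WT library in the right. Ex13del excitatory neurons and astrocytes stand at 25.2% and 17.9% for 1 UMI and at 4.55% and 0.792% for 3, and excitatory neurons, inhibitory neurons and the unnamed nuclei form long tails.

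The spread between nuclei shows the same. In Ex13del excitatory neurons the variance of vector UMIs was 75.9 times their mean, rank 5 among 12755 features with at least 100 UMIs in the class, where the median feature stood at 1.25. In WT excitatory neurons it was 10.3 times the mean, rank 116 of 12947, with a median of 1.19. Inhibitory neurons stood at 17.2 (rank 74 of 7867) in the Ex13del library and 123 (rank 3 of 8444) in the WT library. In astrocytes it was 1.39 in the Ex13del library, where the median feature with at least 50 UMIs stood at 1.24, and 1.22 in the WT library, where it stood at 1.21. In the barcodes under 500 genes the ratio was 0.923 (Ex13del) and 1.06 (WT), near the value of 1 that counting alone gives.

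With nuclei of 10 or more vector UMIs set aside, the neurons of the 2 AAV libraries came close to each other. The limit acts on the compared value itself and was set with the data in view, so part of this closeness is built in. Excitatory neurons then had 0.352 UMIs per nucleus in the Ex13del library and 0.328 in the WT library, or 32.0 CPM in each. Inhibitory neurons had 0.323 and 0.319 UMIs per nucleus in the Ex13del and WT libraries. Oligodendrocytes stayed apart, with 0.401 in the Ex13del library and 0.235 in the WT library, as did the unnamed nuclei with 0.400 and 0.275. Both neuron classes still lay above astrocytes, with an excitatory over astrocyte ratio of 1.53 (1.23 to 1.94) in the Ex13del library and 1.5 (1.22 to 1.88) in the WT library. The medians of depth above differ between these classes in the same direction.

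The rich nuclei, those with 10 or more vector UMIs, numbered 79 in the Ex13del library and 38 in the WT library. Of the 79 Ex13del nuclei, 53 were excitatory, 5 inhibitory, 16 unnamed, 2 oligodendrocytes, and 1 each a precursor, a microglial cell and an endothelial cell. Of the 38 WT nuclei, 22 were excitatory, 8 inhibitory, 7 unnamed and 1 an oligodendrocyte. The highest single counts in the Ex13del library were 264, 240, 168, 119 and 106 UMIs, all in excitatory neurons. The highest in the WT library were 278 UMIs in a Pvalb interneuron, 79 in a layer 5 intratelencephalic neuron and 71 in an oligodendrocyte. The top Ex13del nucleus devoted 264 of its 13150 UMIs to the vector, and the top WT nucleus 278 of its 8687.

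In the Ex13del library the rich excitatory nuclei sat mainly in 1 cluster, number 18. It held 48 of the 53, and 38.4% (29.8 to 47.5%) of its 125 Ex13del nuclei were rich. Its mean was 19.3 UMIs per nucleus (18.5 to 20.1), it held 2411 of the 3106 excitatory vector UMIs, and 79.2% (71.0 to 85.9%) of its nuclei had at least 1. The WT library had 9 nuclei in cluster 18, with 0 vector UMIs, which allows a share of up to 33.3%. The Ex13del library gave 82.2% of the 152 nuclei of the cluster over all 4 libraries, so a cluster of 1 library and a cell state cannot be told apart. The vector feature and the Sik genes took no part in the clustering. The genes that led cluster 18 were olfactory receptor genes (Olfr115, Olfr112, Olfr111, Olfr113), Slamf1, Atf3, a stress-induced transcription factor, Adcyap1, a neuropeptide, and Bdnf, a growth factor induced by neuronal activity. They defined the cluster and are no finding about it.

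Cluster 18 was named excitatory by the marker rule, though not all markers stood at the level of other excitatory neurons, and it had no subclass name. Slc17a7 stood at 233 CPM (208 to 260) in its Ex13del nuclei, against 227 CPM (221 to 234) in the other Ex13del excitatory neurons. Camk2a stood lower at 384 CPM (352 to 418), against 732 CPM (721 to 743), and Sv2b, a synaptic vesicle protein, at 155 CPM (135 to 177), against 429 CPM (421 to 438). Nrgn, a calmodulin-binding protein of excitatory neurons, stood at 272 CPM (245 to 301), against 380 CPM (372 to 388), and Tbr1, a transcription factor of cortical projection neurons, at 26.9 CPM (19.0 to 37.1), against 41.8 CPM (39.2 to 44.5). Gad2, an enzyme of GABA synthesis in interneurons, stood at 48.8 CPM (37.8 to 61.9), against 11.3 CPM (9.92 to 12.7). In the 48 rich nuclei alone, Slc17a7 stood at 169 CPM (136 to 207), Camk2a at 261 CPM (220 to 308), Sv2b at 56.3 CPM (38.2 to 79.9) and Gad2 at 70.8 CPM (50.3 to 96.8).

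**Figure D4:**
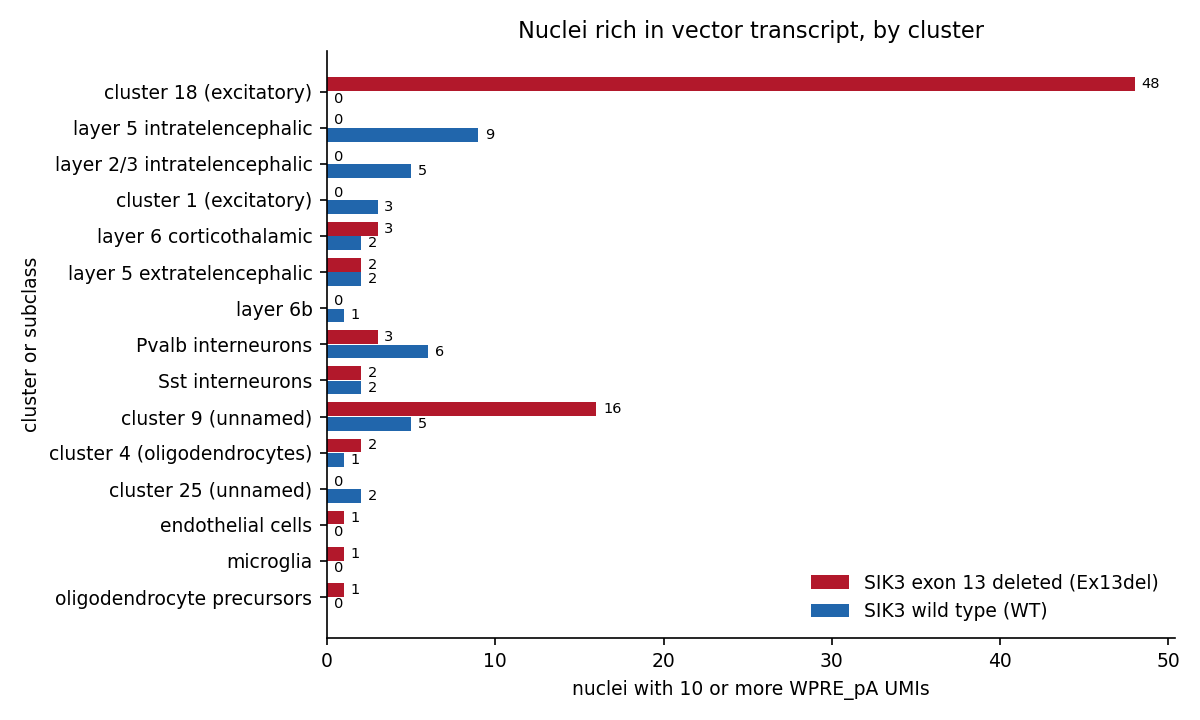
Number of nuclei with 10 or more WPRE_pA UMIs (x axis) in each cluster or subclass that holds any (y axis), with the Ex13del library above the WT library and the count printed beside each bar. The Ex13del nuclei pile up in cluster 18 (48) and the unnamed cluster 9 (16), and the WT nuclei lie in layer 5 intratelencephalic (9), Pvalb (6), layer 2/3 (5) and cluster 9 (5) nuclei.

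Among excitatory subclasses the libraries differed in where the vector was found. Without cluster 18, Ex13del layer 5 extratelencephalic neurons, which project out of the cortex, had the highest subclass level at 0.720 UMIs per nucleus (0.568 to 0.899), with 2 of 107 nuclei rich and a median depth of 16039 UMIs, the deepest of these subclasses. The same subclass had 0.392 (0.311 to 0.488) in the WT library, with 2 of 204 nuclei rich. Layer 5 intratelencephalic neurons, which connect cortical areas, had 0.279 (0.223 to 0.345) in the Ex13del library with 0 of 308 nuclei rich, and 0.786 (0.706 to 0.872) in the WT library with 9 of 448 rich. Layer 2/3 intratelencephalic neurons had 0.276 (0.230 to 0.329) in the Ex13del library with 0 of 456 nuclei rich, and 0.422 (0.373 to 0.476) in the WT library with 5 of 637 rich. Layer 6 corticothalamic neurons were alike, with 0.411 (0.360 to 0.467) in the Ex13del library and 0.456 (0.406 to 0.509) in the WT library.

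The remaining excitatory subclasses had lower or less certain levels. Layer 6b neurons had 0.323 (0.197 to 0.498) in the Ex13del library and 0.559 (0.395 to 0.767) in the WT library, where 1 nucleus gave 20 of the 38 UMIs. Layer 4/5 intratelencephalic neurons had 0.248 (0.188 to 0.321) in the Ex13del library and 0.218 (0.170 to 0.274) in the WT library. Near-projecting neurons of layers 5 and 6 had 0.241 (0.147 to 0.372) in the Ex13del library and 0.268 (0.181 to 0.382) in the WT library. Those 2 subclasses had no rich nucleus in either library and overlapped the level of astrocytes. Cluster 1, excitatory and led by Rxfp1, Sulf1 and Oprk1 without a subclass name, had 0.270 (0.212 to 0.338) in the Ex13del library and 0.508 (0.433 to 0.591) in the WT library.

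Most of these subclass gaps changed when the nuclei of cluster 18 were placed with the excitatory cluster whose expression they resembled most. Nuclei of the other excitatory clusters fell back into their own cluster at a rate of 92.4% (Ex13del) and 93.5% (WT) by this rule. That rate covers only clusters that gave profiles. Cluster 18 gave none, and each of its nuclei was placed whether or not it matched well. In its 48 rich nuclei the layer markers Deptor, Foxp2, Cux2 and Rorb stood at 12.7, 27.2, 94.4 and 162 CPM. They stood at 52.4, 185, 126 and 242 CPM in the other Ex13del excitatory neurons. How far the placement holds for cluster 18 was not tested. Of the 48 rich nuclei, 14 went to layer 5 intratelencephalic neurons, 13 to cluster 1, 8 to layer 6 corticothalamic, 7 to layer 2/3, 3 to layer 5 extratelencephalic, 2 to layer 4/5 and 1 to layer 6b neurons. With them, layer 5 intratelencephalic neurons had 2.25 UMIs per nucleus (2.10 to 2.42) in the Ex13del library, against 0.772 (0.693 to 0.857) in the WT library. Layer 2/3 neurons then had 0.749 (0.673 to 0.831) in the Ex13del library, against 0.422 in the WT library. Layer 5 extratelencephalic neurons, with 3 nuclei added, had 5.59 (5.16 to 6.05) in the Ex13del library, against 0.392 in the WT library. Near-projecting neurons received no nucleus and stayed at 0.241. The direction between the libraries in layer 5 intratelencephalic, layer 2/3, cluster 1, layer 6 corticothalamic and layer 6b neurons thus depended on where cluster 18 was counted.

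Among interneurons the fast-spiking Pvalb type had the highest mean per nucleus. It was also the deepest type, at median depths of 10181.5 (Ex13del) and 8040.5 (WT) UMIs. It had 0.939 UMIs per nucleus (0.803 to 1.09) in the Ex13del library with 3 of 180 nuclei rich, and 1.91 (1.74 to 2.09) in the WT library with 6 of 246 rich. One WT nucleus held 278 of the 469 Pvalb UMIs. Sst interneurons, which target dendrites, had 0.410 (0.321 to 0.516) in the Ex13del library and 0.546 (0.456 to 0.648) in the WT library, with 2 rich nuclei in each. Vip interneurons had 0.315 (0.224 to 0.430) in the Ex13del library and 0.239 (0.170 to 0.327) in the WT library. Lamp5 or Sncg interneurons had 0.333 (0.218 to 0.488) and 0.180 (0.116 to 0.268) in the Ex13del and WT libraries. The last 2 types had no rich nucleus in either library.

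Between the viruses, excitatory neurons held 2.79 times (2.61 to 2.98) as many vector CPM in the Ex13del library as in the WT library, and 2.99 times (2.81 to 3.20) as many UMIs per nucleus. It was the largest ratio among 7010 genes that passed a floor of 20 CPM on average and 100 UMIs. Of these, 4 (0.0571%) were at least 2-fold higher in the Ex13del library, and 0 (0%) were at least 2-fold lower. The other 3, named after their values were seen, were Gm32647 at 2.77, Bdnf at 2.07 and Gm19951 at 2.0. Cluster 18, which Bdnf helped define, held 462 of the 1218 Ex13del Bdnf UMIs of the class. Outside it, Bdnf stood at 32.7 CPM in Ex13del excitatory neurons, against 24.1 CPM in all WT excitatory neurons. Gm32647 and Gm19951 were not split this way. The vector ratio rested on cluster 18 and the rich nuclei. It was 0.660 (0.601 to 0.724) without cluster 18. Without rich nuclei, which are cut by the vector count itself, it was 0.998 (0.905 to 1.10).

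In inhibitory neurons the ratio went the other way, at 0.544 (0.474 to 0.624), rank 7467 of 7468 genes. There 1 gene (0.0134%), Tshz2, was at least 2-fold lower, and 2 (0.0268%) were at least 2-fold higher, Gm19951 and Mir670hg. Without the highest nucleus of each library the inhibitory ratio was 0.747 (0.634 to 0.879). In astrocytes, striatal projection neurons and endothelial cells the interval of the ratio held 1, so a difference was not detectable at this depth. The ratio was 0.972 (0.719 to 1.31) in astrocytes, 1.15 (0.764 to 1.76) in striatal projection neurons and 1.36 (0.931 to 2.01) in endothelial cells. In oligodendrocytes it was 1.19 (0.983 to 1.45) in CPM and 1.26 (1.04 to 1.53) per nucleus, and 1.72 (1.37 to 2.16) in CPM without the highest nucleus of each library, since 1 WT nucleus held 37.4% of the WT UMIs of the class. In microglia it was 3.24 (2.30 to 4.62), where 19 of 2102 genes (0.904%) were at least 2-fold higher and 17 (0.809%) at least 2-fold lower, and it was 1.19 (0.774 to 1.84) without the highest nucleus of each library.

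Several rich nuclei were not neurons by name. The microglial nucleus of the Ex13del library had 98 vector UMIs among 8480, and it alone held 66.2% of the microglial vector UMIs. Only 10 of its UMIs came from Meg3, Syt1 and Snap25 together, or 1179 CPM, against 1516 CPM in Ex13del microglia with no vector UMI. The oligodendrocyte of the WT library had 71 vector UMIs among 12619, with 61 UMIs of those neuronal genes, or 4834 CPM, against 1411 CPM in WT oligodendrocytes with no vector UMI. The precursor of the Ex13del library had 16 among 36054 UMIs, with 156 neuronal UMIs, or 4327 CPM, against 2385 CPM in precursors with no vector UMI. Of these 3, the oligodendrocyte and the precursor thus held a larger share of neuronal RNA than their vector-free class sums, and the microglial nucleus did not. Their counts were still within those of single vector-free nuclei, which reached 61 UMIs in WT oligodendrocytes and 183 in Ex13del precursors. Doublet scores were 0.0702 in the microglial nucleus, 0.0571 in the oligodendrocyte and 0.125 in the precursor, against medians of 0.0196, 0.0169 and 0.0104 in vector-free nuclei of the same class and library. All 3 were also deeper than those nuclei, whose median depths were 1780, 2000.5 and 3210 UMIs. Whether any of the 3 droplets held more than 1 nucleus cannot be told from these values. The other named rich nuclei outside neurons, all of the Ex13del library, went both ways. Its 2 rich oligodendrocytes had 2601 CPM of those neuronal genes together, against 1507 CPM in vector-free oligodendrocytes. Its rich endothelial nucleus had 1449 CPM, against 1976 CPM in vector-free endothelial cells.

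Oligodendrocytes split by cluster. The main one, cluster 3, had 0.249 UMIs per nucleus (0.205 to 0.299) in the Ex13del library and 0.192 (0.154 to 0.237) in the WT library, as in astrocytes. Cluster 4, with median depths of 1288.5 (Ex13del) and 1126 (WT) UMIs and led by Cryab and Mal, had 1.78 (1.5 to 2.1) in the Ex13del library and 1.84 (1.5 to 2.23) in the WT library. It held 139 of the 253 Ex13del and 103 of the 190 WT oligodendrocyte vector UMIs in 78 and 56 nuclei. In the WT library 71 of these 103 UMIs were in 1 nucleus, while in the Ex13del library 21.8% of the nuclei had 3 or more. The mitochondrial share moved with the vector in oligodendrocytes: its median was 3.04% (Ex13del) and 2.91% (WT) in nuclei with 3 to 9 vector UMIs, against 0.844% and 1.07% in nuclei with 0. Its part in the result was not tested. The unnamed cluster 9, at median depths of 1140 and 1066.5 UMIs and led by Ttr and Gm42418, had 1.06 (0.985 to 1.15) in the Ex13del library with 16 of 625 nuclei rich, and 0.423 (0.376 to 0.473) in the WT library with 5 of 712 rich. It stayed unnamed because it was shallow and no class marker led it. It did carry 7 excitatory markers, enough for that name apart from these limits, while endothelial cluster 5 and microglial cluster 14 carried 6 each. At Leiden resolution 2, 67 of the 79 rich Ex13del nuclei were named excitatory and 5 were unnamed. For the 38 rich WT nuclei these counts were 29 and 2.

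Sik3, the mouse gene of the kinase (mm10, GENCODE vM21, chr9:46012820-46224194, plus strand), was higher in nuclei rich in the vector. In Ex13del excitatory neurons with 0, 1, 2, 3 to 9 and 10 or more vector UMIs it stood at 179, 174, 168, 338 and 610 CPM. In WT excitatory neurons it stood at 183, 193, 215, 302 and 554 CPM. Nuclei with 1 or 2 vector UMIs thus had Sik3 near the level of nuclei with 0, and the higher levels began in the bin of 3 to 9. In the Ex13del library these bins also differed in cluster. There 25 of the 48 nuclei with 3 to 9 lay in cluster 18, against 21 of the 383 with 1 and 5 of the 74 with 2. In the WT library 0 of the 70 nuclei with 3 to 9 lay in cluster 18. Rich over vector-free nuclei differed 3.41-fold (3.06 to 3.78) in the Ex13del library, with a Sik3 UMI in 52 of 53 rich nuclei. Of the 53 rich nuclei 48 lay in cluster 18, against 26 of the 1660 vector-free ones, so this sets mostly different clusters against each other. Within cluster 18, compared after the data were seen, the ratio was 2.70 (2.04 to 3.62), with 601 CPM in the 48 rich and 223 CPM in the 26 vector-free nuclei. Outside it, the ratio was 3.71 (2.84 to 4.76) over 5 rich nuclei. Those of the WT library differed 3.02-fold (2.57 to 3.54), with a Sik3 UMI in 22 of 22. In inhibitory neurons the ratio was 1.44 (0.848 to 2.28) over 5 rich nuclei in the Ex13del library and 3.85 (3.03 to 4.83) over 8 in the WT library, and the interval of the first held 1. One of the 5 Ex13del nuclei gave 13 of their 18 Sik3 UMIs.

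**Figure D5:**
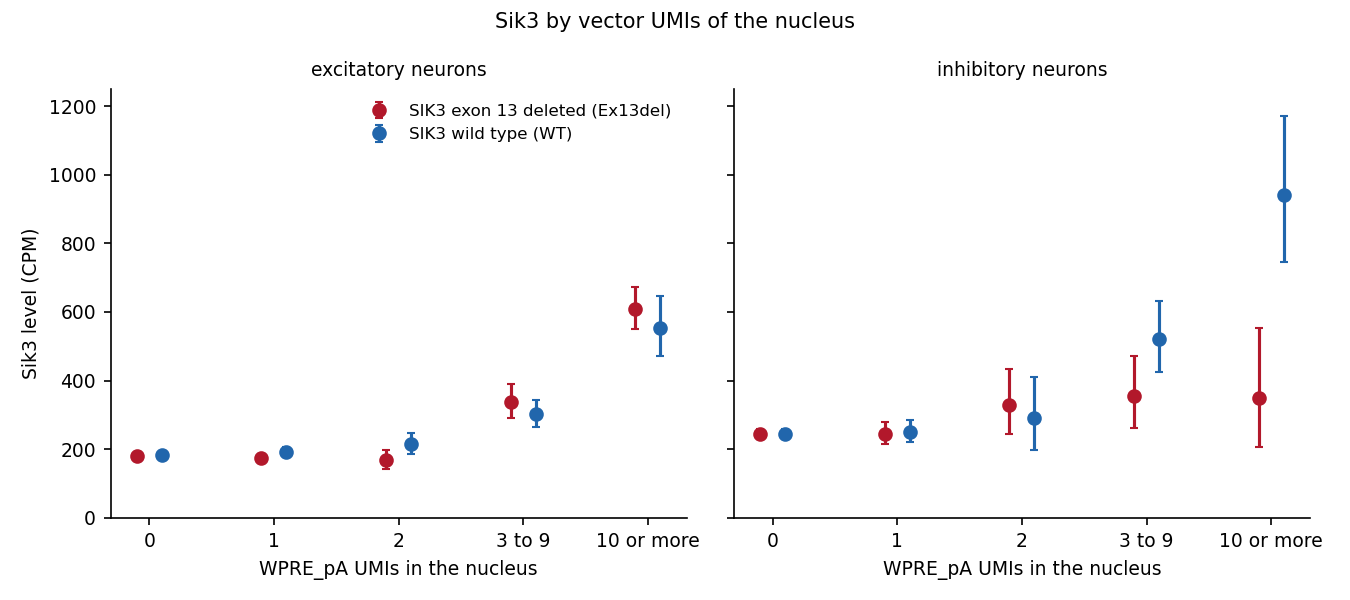
Sik3 level (y axis, CPM of the summed nuclei, with exact 95% Poisson intervals) by the number of WPRE_pA UMIs in the nucleus (x axis), for excitatory neurons at left and inhibitory neurons at right, with the Ex13del point left of the WT point in each bin. Sik3 is flat from 0 to 1 vector UMI and reaches 610 (Ex13del) and 554 (WT) CPM in rich excitatory nuclei.

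Its relatives stood higher in rich excitatory nuclei of the WT library, and in the Ex13del library their intervals held 1. Sik2 (chr9:50892801-51009073, minus strand), another salt-inducible kinase, stood at 86.7 CPM in rich Ex13del excitatory nuclei, against 97.6 CPM in those with 0 vector UMIs, a ratio of 0.888 (0.668 to 1.16). Sik2 in the WT library stood at 260 CPM in rich nuclei, against 109 CPM in those with 0, a ratio of 2.37 (1.86 to 2.98). Sik1 (chr17:31844250-31855804, minus strand) had 4 UMIs in rich Ex13del excitatory nuclei, a ratio of 1.11 (0.296 to 2.93), and 6 in rich WT ones, a ratio of 5.69 (2.03 to 12.9). Rich WT nuclei also had higher doublet scores, with a median of 0.0891 against 0.0411 in those with 0, and rich Ex13del nuclei had 0.0477 against 0.0348. The part of these scores in the result was not tested. Whether RNA of the SIK3 transgene is counted under Sik3 was also not tested, so a change of the mouse gene and reads of the transgene cannot be told apart.

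The genes that AAV needs to enter and reach the nucleus were measured in every class. Of 10 such genes, 2 (Atp2c1, a Golgi calcium pump, and Vps53, part of the complex that returns vesicles to the Golgi) had higher CPM in excitatory neurons than in astrocytes in each AAV library, and 8 had lower. Of all genes with at least 5 CPM on average over the classes, 60.3% (Ex13del) and 62.8% (WT) were lower in excitatory neurons. AU040320, the mouse gene of the AAV receptor, stood at 52.7 CPM in excitatory neurons and 98.4 CPM in astrocytes of the Ex13del library, and at 52.8 and 69.0 CPM in the WT library. Rpsa, the laminin receptor that binds AAV8, stood at 55.0 CPM in excitatory neurons and 161 CPM in astrocytes of the Ex13del library, and at 58.0 and 186 CPM in the WT library. Over 8 larger classes, microglia were the highest for 8 of the 10 genes in the Ex13del library and for 7 in the WT library, where 27.6% (Ex13del) and 25.1% (WT) of all those genes were highest in microglia. With 10 genes chosen by function, these counts are a description. Syn1 (chrX:20860511-20921004, minus strand), the mouse gene of the protein whose human promoter drives the vector, was neuronal. It averaged 1.58 UMIs per excitatory nucleus and 0.111 per astrocyte in the Ex13del library, and 1.54 and 0.152 in the WT library.

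Across the 8 classes with at least 100 nuclei in both AAV libraries (16 points), the genes whose CPM ran most like the vector were Hars, Dctn2, Usp25, Tmem127 and Bicd2. Their Pearson r of log2(CPM + 1) with WPRE_pA was 0.908, 0.872, 0.862, 0.861 and 0.855 among 8577 genes. Hars, a histidyl-tRNA synthetase, ran from 18.1 to 54.1 CPM over the points, and Dctn2, a dynactin subunit, from 22 to 83.3 CPM, lowest in WT striatal projection neurons for both and highest in Ex13del microglia. All 5 are broadly expressed genes and none is restricted to neurons in these data, with Hars at 26.0 CPM in Ex13del astrocytes and 30.3 CPM in Ex13del excitatory neurons. The points share their libraries and their depth, CPM of a flat level falls as depth rises, and 1 nucleus sets the microglial point of the vector, so the correlations are a description.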

How the data were processed

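Nuclei of frozen primary motor cortex were counted with a 10x Chromium 3′ v3.1 kit, per the labels. The deposited values are raw UMI counts per gene and barcode, which the authors left without normalization or annotation; the submitters' processing notes name Cell Ranger 6.1.2 and the mm10 build, and how WPRE_pA entered the index is not given in the sources used here. Barcodes with at least 500 genes and under 5% mitochondrial UMIs were kept. Scrublet's automatic threshold marked 4 Ex13del, 0 WT, 0 sleep deprivation and 428 ad lib nuclei, so the top-scoring 0.8% per 1000 barcodes were removed instead (295, 392, 266 and 687). Nuclei were clustered in scanpy 1.11.5 (2000 variable genes without WPRE_pA, Sik genes and gauges, values centred within library, 30 components, 15 neighbours, Leiden resolution 1, 27 clusters) and named from marker lists. The naming thresholds and the limit of 10 vector UMIs for a rich nucleus were set with the data in view. Members and lists were chosen with earlier results of these data known. Named genes were WPRE_pA, the Sik genes, Syn1, free RNA gauges, AAV entry genes and the 5 most similar genes. UMIs were summed per class and library, CPM are counts scaled to 1000000 UMIs of that class, and fold counts used genes of at least 20 CPM and 100 UMIs. The fold counts were tested on simulated data. Coordinates come from GENCODE vM21 (mm10). UMIs remove PCR copies. Depth per library was 43655557 (Ex13del), 47662932 (WT), 49422196 (sleep deprivation) and 54070503 (ad lib sleep) UMIs.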

Additional observations from a re-analysis of the deposited data

Results flagged for a closer look

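The vector CPM ratio of the Ex13del over the WT library was 2.79 in excitatory neurons and 0.544 in inhibitory neurons, in opposite directions; the difference was not tested, with 1 library per virus. Vector UMIs were also found in barcodes that took no part in the comparisons, while the sleep deprivation and ad lib sleep libraries had 0. Predicted doublets held 0.597 vector UMIs per barcode in the Ex13del library (295 barcodes, 4 of them rich) and 1.44 in the WT library (392 barcodes, 13 of them rich, with up to 115 UMIs). Barcodes over the mitochondrial limit held 0.307 in the Ex13del library (199 barcodes) and 0.269 in the WT library (160 barcodes).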

How the results depend on the processing

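For excitatory neurons, the Ex13del over WT ratio of vector CPM (2.79) and of UMIs per nucleus (2.99) became 3.25 and 3.49 with under 1% mitochondrial UMIs, 2.55 and 2.73 with predicted doublets kept, 2.33 and 2.41 at Leiden resolution 2, and 3.21 in both after thinning to 1000 UMIs. Without rich nuclei they were 0.998 and 1.07, and without cluster 18, an alternative chosen after seeing the data, 0.660 and 0.708. Size factors gave a CPM ratio of 2.66. The excitatory over astrocyte ratio in the Ex13del library (6.1) became 7.90 with under 1% mitochondrial UMIs, 2.03 after thinning, 1.53 without rich nuclei and 1.45 without cluster 18. In the WT library (2.14) it became 1.61 with doublets kept, 3.16 at resolution 2, 0.547 after thinning, which turns its direction, and 1.5 without rich nuclei. The share of excitatory nuclei with 3 or more vector UMIs was 4.55% in the Ex13del library and 3.27% in the WT library. The Ex13del share became 6.42% at resolution 2, 1.36% after thinning, 2.22% without rich nuclei and 1.34% without cluster 18, and the WT share 0.178% after thinning and 2.51% without rich nuclei. The count of genes past 2-fold in excitatory neurons, 4, was 2 with size factors and 34 with a floor of 5 CPM. Of 132 values by class and subclass, 90 moved by more than their interval after thinning, 44 without rich nuclei, 35 at resolution 2, 9 with at least 1000 genes, 9 without centring and 3 without cluster 18. Of 126, 42 moved with under 1% mitochondrial UMIs and 34 with doublets kept. The 5 most similar genes shared 4 with those at a floor of 5 CPM. The causes were not tested, other than that thinning, leaving out nuclei and leaving out a cluster use fewer UMIs by construction. No paired analysis was possible because each group has 1 library. Classes of under 100 nuclei held few vector UMIs, so their intervals are wide beside their levels. Ex13del pericytes with smooth muscle held 13, and vascular leptomeningeal cells held 8 (Ex13del) and 4 (WT).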
